A study of Homo sapiens with 26 samples.

Results

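CAL51 is an established human breast cancer cell line, labelled as triple negative. In 2 of its 7 sequenced cultures, the small tetraploid (4N) clone and diploid (2N) clone 1, the gene CD44 exceeded 40 FPKM (fragments per kilobase of gene, scaled per library), and in the 5 others it stayed far below that level. These 2 libraries, of 26 in the whole series, are called the CD44-high pair here. They were chosen by their CD44 value, and CD47 and PLAGL1 were named as markers of the same state from earlier results of these data, so the differences between the pair and the other CAL51 libraries are described without a test. The pair crosses the ploidy labels. The small clone is labelled 4N and is the only small 4N clone of this line, while 2N clone 1 is labelled 2N. The 5 other CAL51 libraries are large 4N clones 1, 2 and 3, 2N clone 2 and the uncloned parental 2N population. The study made CAL51 4N cells by preventing cytokinesis with 75 µM blebbistatin, an inhibitor of non-muscle myosin, for 20 hr, and after washout and 48 hr of recovery it grew single cells into clones, which were classed as small or large. The labels do not say whether the 2N clones went through the drug. Each clonal library is 1 clone grown from a single cell, no clone was sequenced more than once, and the labels name no genetic modification. For comparison the series holds 9 libraries of HCT116 (3 large 4N clones, 3 small 4N clones, 2N clones 1 and 2 and a parental population) and 10 of DLD1 (4 large 4N clones, 3 small 4N clones, 2N clones 1 and 2 and a parental population), both colorectal cancer lines, with blebbistatin used in HCT116 and DCB, labelled as dihydrocytochalasin, in DLD1.

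CD44 is a receptor of the cell surface that binds hyaluronan, a sugar polymer of the matrix around cells, and it is widely used as a surface marker of breast cancer cell states. CD47 is the surface protein that signals to macrophages not to engulf a cell. PLAGL1 is a zinc finger transcription factor gene that is imprinted, so that in many tissues it is read mainly from the copy inherited from the father. Epithelial and mesenchymal states are ends of a range in which epithelial cells hold to each other through E-cadherin (CDH1), and mesenchymal cells make fibrous matrix instead.

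The stretches upstream of 3 genes are shown because they differ in CG content, the dinucleotide at which DNA is methylated: CD47 and PLAGL1 are the other markers, and EHF is the neighbour of CD44 that followed it. Each is the 250 bases before a RefSeq start (GRCh38.p14), 5′ to 3′, with every CG in capitals. Only windows with no exon annotated in GENCODE were taken, and the window of CD44 lies wholly within annotated exons. The windows are chr3:108091032-108091281 on the minus strand for CD47, chr11:34624007-34624256 on the plus strand for EHF and chr6:144064600-144064849 on the minus strand for PLAGL1.
CD47: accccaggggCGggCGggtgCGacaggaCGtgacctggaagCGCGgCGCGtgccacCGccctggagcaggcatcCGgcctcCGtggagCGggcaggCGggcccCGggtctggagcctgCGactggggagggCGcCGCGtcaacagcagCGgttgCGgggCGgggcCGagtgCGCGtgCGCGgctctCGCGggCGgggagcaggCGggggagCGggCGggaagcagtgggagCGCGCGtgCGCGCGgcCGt
EHF: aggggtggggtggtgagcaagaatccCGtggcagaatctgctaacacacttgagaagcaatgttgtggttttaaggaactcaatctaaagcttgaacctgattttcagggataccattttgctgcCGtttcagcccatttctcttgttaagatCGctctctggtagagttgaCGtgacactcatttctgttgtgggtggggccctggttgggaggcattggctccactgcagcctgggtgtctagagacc
PLAGL1: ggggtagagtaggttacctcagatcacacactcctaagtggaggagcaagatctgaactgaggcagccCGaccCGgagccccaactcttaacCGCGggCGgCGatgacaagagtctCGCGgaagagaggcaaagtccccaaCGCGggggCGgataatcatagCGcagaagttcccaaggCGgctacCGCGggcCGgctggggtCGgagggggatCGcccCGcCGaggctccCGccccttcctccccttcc
They hold 39, 4 and 21 CG, beside a median of 17 over 21021 windows of protein-coding genes. PLAGL1 has 4 other RefSeq windows, with 1, 1, 3 and 32 CG, and EHF has another with 2. The window shown is the richest in CG of those free of annotated exons, and which start was in use cannot be read from values per gene. The PLAGL1 window with 32 CG overlaps annotated exons, and which PLAGL1 start is imprinted was not examined. Over the genes described below that followed CD44, 26 of 38 had a window, and the 45 windows of these 26 genes had a median of 14 CG at the genes higher in the pair and 19.5 at the genes lower in it. The motif TGANTCA, searched on both strands, was in a window of 0 of 10 higher and 1 of 16 lower genes, where 7.17% of all protein-coding genes had it. CACCTG was in a window of 2 of the 10 and 3 of the 16, where 21.6% of all had it.

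The recovered depth was 26.4 M to 44.5 M reads per CAL51 library, and mitochondrial genes took 3.65% to 7.60% of it. For the 3 receptors that define the triple negative class only mRNA could be read, which gives neither protein level nor gene amplification. ESR1 reached at most 0.0217 FPKM in the pair and 0.0106 in the other libraries, and PGR was listed at 0 in the pair and reached 0.0095 in the others, while ERBB2 mRNA was present at 22.5 to 22.8 FPKM in the pair and 14.9 to 22.1 in the others. The simple epithelial keratins KRT8 and KRT18 were abundant, and the basal keratins KRT5 and KRT14 were listed at 0 in all 7 libraries. Marker lists of endothelium and of blood cells had 0 members past the filter on low values, and their summed FPKM was at most 0.712 in the pair and at most 4.21 in the others.

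CD44 (ENSG00000026508, chromosome 11, 35138870 to 35232402) had 62.0 FPKM in the small 4N clone and 41.9 in 2N clone 1, compared with 3.18, 4.67 and 0.887 in large clones 1 to 3, 3.59 in 2N clone 2 and 7.97 in the parental population. The lowest value inside the rule is thus 41.9 and the highest outside it 7.97, and no library lies between. CD47 (ENSG00000196776, chromosome 3, 108043094 to 108091862) had 28.4 FPKM in the small 4N clone and 24.5 in 2N clone 1, compared with 5.72, 6.49 and 7.28 in the large clones, 5.90 in 2N clone 2 and 8.57 in the parental library. PLAGL1 (ENSG00000118495, chromosome 6, 143940300 to 144064599) had 0.0516 and 0.0732 FPKM in the small 4N clone and 2N clone 1, from 13 and 17 recovered reads, against 4.63, 4.40 and 5.70 in the large clones, 2.40 in 2N clone 2 and 2.66 in the parental library. For all 3 genes the pair lies apart from the 5 others without overlap. In bulk RNA, fewer cells expressing a gene and less RNA per cell cannot be told apart.

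The 3 markers did not keep this arrangement in the other lines. The 9 HCT116 libraries held 30.9 to 78.6 FPKM of CD44, a range that spans both values of the CAL51 pair, while their CD47 was 3.99 to 7.14 FPKM and their PLAGL1 2.69 to 6.14. DLD1 held 0.356 to 6.69 FPKM of CD44, 3.39 to 11.1 of CD47 and 3.61 to 8.25 of PLAGL1. Outside the pair the highest CD47 value was 11.1 FPKM and the lowest PLAGL1 value 2.40.

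**Figure D1:**
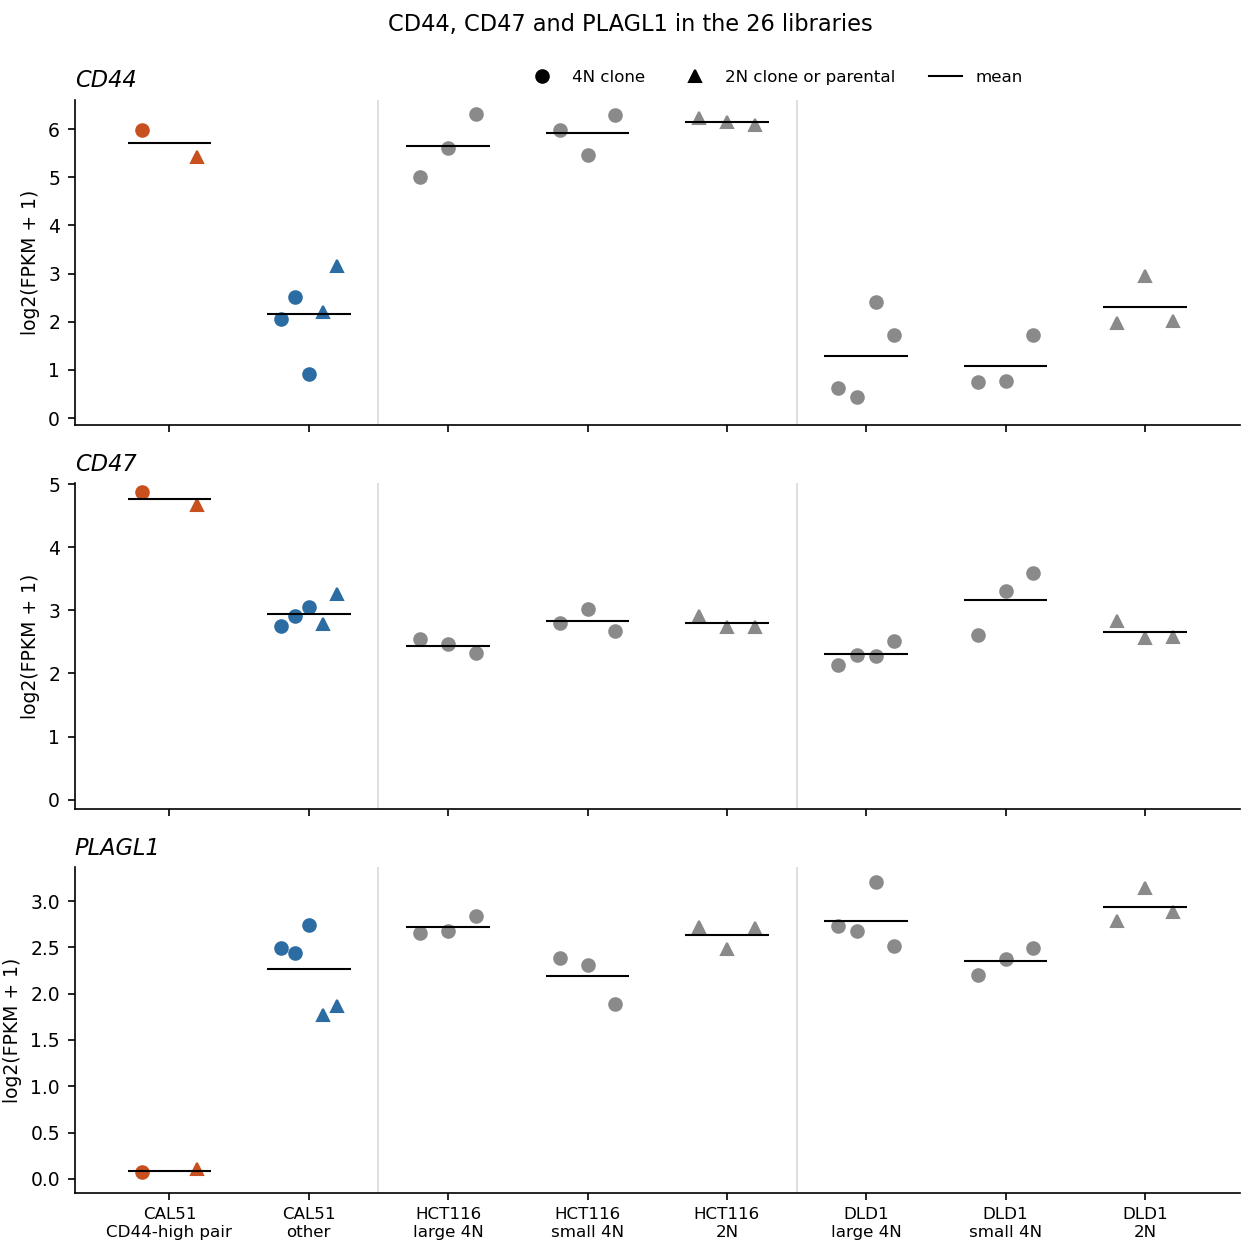
Level of CD44, CD47 and PLAGL1 as log2(FPKM + 1) in each of the 26 libraries (points, circles for 4N clones, triangles for 2N clones and parental populations) with the mean of each group (line). The CAL51 pair stands at the CD44 level of HCT116, at 24.5 and 28.4 FPKM of CD47 it is above all other libraries, and PLAGL1 is near 0 in the pair alone.

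Across the transcriptome, a gene was counted as following CD44 when the lower of the 2 CD44-high libraries lay at least 1 log2 unit of FPKM + 1 above the highest of the 5 others, or the higher of them at least 1 unit below the lowest of the others. Of 12615 genes with 1 FPKM or more in at least 2 CAL51 libraries, 15 followed it upwards (0.119%) and 23 downwards (0.182%), all 38 of them protein-coding. These counts are a description of 7 libraries. With a gap of 0.5 or more the counts were 84 (0.666%) and 124 (0.983%), and with any gap above 0, 1500 genes (11.9%) lay above and 1378 (10.9%) below all 5 others. The median difference between the pair and the others was 2.30 over the 15 genes and -2.03 over the 23, where it was 0.02 over all genes.

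Of the genes higher in the pair, CDH1, the E-cadherin of epithelial junctions, had 3.91 FPKM in the small 4N clone and 11.1 in 2N clone 1, compared with 0.666, 0.729 and 0.193 in the large clones, 0.231 in 2N clone 2 and 1.22 in the parental library. EHF (ENSG00000135373, chromosome 11, 34621093 to 34661057), an ETS transcription factor of epithelia, had 12.3 and 10.4 FPKM in the small 4N clone and 2N clone 1, against 0.938, 0.284 and 0.502 in the large clones, 0.704 in 2N clone 2 and 3.17 in the parental library. AGR2, a disulfide isomerase of secretory cells, came next to CD44 in the width of its gap, with 69.2 FPKM in the small 4N clone and 77.6 in 2N clone 1, against 4.18 to 15.3 in the large clones, 9.52 in 2N clone 2 and 19.1 in the parental library. In all of these the parental population was the highest of the 5 other libraries, as it was at 9 of the 15 genes, and at 0 of the 15 was it the lowest. How often it ranks so over all genes was not counted, and the genes were chosen through the values of these same libraries.

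MMP28, a matrix metalloprotease, differed most on average, with 35.1 FPKM in the small 4N clone and 14.2 in 2N clone 1, against 0.0512 to 0.534 in the large clones, 1.403 in 2N clone 2 and 5.07 in the parental library. FGF8, a secreted growth factor, had 5.59 and 4.32 FPKM in the small 4N clone and 2N clone 1, against 0.0261 to 0.340 in the large clones, 1.06 in 2N clone 2 and 1.11 in the parental library. The metalloprotease ADAMTS8 had 12.4 and 11.3 FPKM in the pair and 0.655 to 4.13 in the others, and PRSS35, a serine protease relative, had 28.9 and 21.5 in the pair and 0.454 to 6.14 in the others. SEMA6B, a semaphorin that guides growing axons, stood at 51.5 and 49.0 FPKM in the pair, against 0.755 to 15.01 in the others, with large clone 2 the lowest. DAB1, an adaptor of reelin signalling, had 8.72 and 9.204 FPKM in the pair and 0.0291 to 2.73 in the others.

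PPP1R14A, which inhibits myosin phosphatase, had 23.9 and 16.0 FPKM in the pair and 0.146 to 5.01 in the others. SLC38A4, an amino acid transporter, had 13.8 and 11.9 in the pair and 0.282 to 3.63 in the others. GPRIN2, which binds G proteins, had 6.15 in the small 4N clone and 9.25 in 2N clone 1, against 0.0558 to 2.21 in the others, and PPFIBP1, a liprin of cell contacts, had 17.6 and 16.2 in the pair against 4.40 to 6.88. None of the 15 genes was confined to the pair by the filter of 1 FPKM, since each reached that level in at least 1 other library. Large clone 2 was the lowest of the 5 others at 10 of the 15, with no count over all genes to set beside it.

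Of the genes lower in the pair, IGFBP3 (ENSG00000146674, chromosome 7, 45912245 to 45921874), which binds insulin-like growth factors in the blood and matrix, had 0.835 FPKM in the small 4N clone and 0.987 in 2N clone 1, compared with 56.3, 48.2 and 10.4 in large clones 1 to 3, 148 in 2N clone 2 and 69.5 in the parental library. Its gap of 2.52 log2 units was wider than that of CD44 (2.26). NTS, the precursor of the peptide neurotensin, had 0.201 and 0.218 FPKM in the pair and 4.61 to 72.4 in the others. FBN2, a fibrillin of elastic fibres, had 0.021 and 0.0827 in the pair and 3.89 to 11.7 in the others.

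SOST, which encodes the WNT inhibitor sclerostin, had 1.45 FPKM in the small 4N clone and 4.68 in 2N clone 1, compared with 343, 19.8 and 24.7 in large clones 1 to 3, 32.1 in 2N clone 2 and 36.0 in the parental library. GDF15, a cytokine released under stress, had 23.1 and 26.4 FPKM in the pair, against 176, 107 and 96.6 in the large clones, 75.2 in 2N clone 2 and 63.4 in the parental library. LIF, a cytokine that keeps stem cells undifferentiated in mice, had 0.970 and 1.01 in the pair and 3.80 to 6.94 in the others. PLAU, the urokinase that activates plasminogen, had 0.623 and 0.676 in the pair and 2.999 to 16.4 in the others, and the matrix protein SMOC2 had 4.10 and 4.58 in the pair against 11.9 to 40.9.

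CDKN2A, which encodes inhibitors of the cell cycle, had 1.15 and 1.92 FPKM in the pair and 5.23 to 14.6 in the others. PREX1, which activates the GTPase Rac, had 0.136 and 0.0967 in the pair and 3.81 to 21.2 in the others, and RAPGEF3, which activates Rap in response to cyclic AMP, had 0.310 and 0.274 against 1.77 to 2.41. SPSB4, an adaptor of a ubiquitin ligase, had 0.213 and 0.191 FPKM in the pair, against 29.8, 9.97 and 9.61 in the large clones, 8.65 in 2N clone 2 and 1.57 in the parental library. TCIM, CA11, TUSC3, TUBA1A, PHACTR2 and PNRC1 also met the rule, and TUBA1A shares near-identical coding sequence with other tubulin genes, so its reads are uncertain. TBC1D16, CTSS and FKBP7 had the narrowest gaps and are named after their values were seen. Of the 23 genes 13 were under 1 FPKM in both libraries of the pair. The parental library was the lowest of the 5 others at 6 of these 23 genes and the highest at 0, again with no count over all genes.

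**Figure D2:**
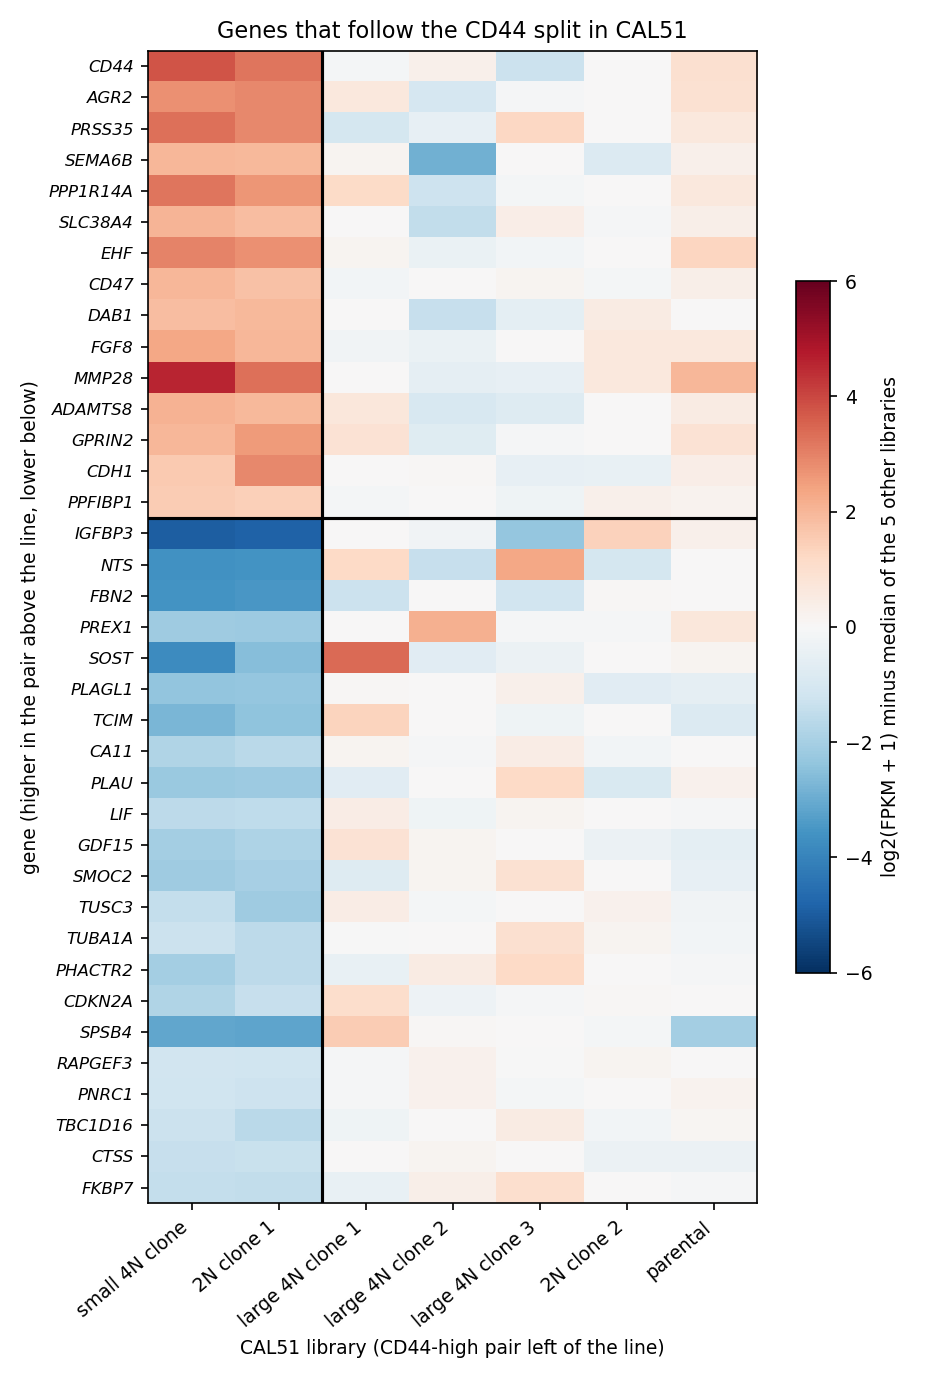
Level of 37 of the 38 genes that follow CD44 in the 7 CAL51 libraries, as log2(FPKM + 1) minus the median of the 5 other libraries (colour, red above and blue below it). The small 4N clone and 2N clone 1 stand left of the vertical line, and the widest gap among the lower genes is that of IGFBP3, at 2.52 log2 units.

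The small 4N clone and 2N clone 1 also resembled each other over all genes. The SD of their log2 differences over 12615 genes was 0.352. Between a library of the pair and another CAL51 library it ran from 0.468 to 0.675, with the parental population nearest to both. Without the 38 genes the same figures were 0.352 for the pair and 0.455 to 0.659. The closeness was not exceptional in the line, since 2N clone 2 and the parental population were nearer still at 0.331, and the widest distance, 0.727, lay between large clones 1 and 3. Large clone 1 was at least 0.631 from each other library. Within the 38 genes, the small clone and 2N clone 1 lay within 1 log2 unit of each other at 13 of the 15 higher and 22 of the 23 lower genes. The exceptions were MMP28, higher in the small clone by 1.25, CDH1, with a small clone minus 2N clone 1 difference of -1.30, and SOST, with -1.21.

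The small 4N clone and 2N clone 1 share the CD44 state but not the ploidy label. With 1 library on each side and no replicate check, ploidy cannot be told apart from size class or clone identity. The small clone was at least 1 log2 unit higher at 123 genes (0.975%) and lower at 137 (1.09%), and by at least 2 units at 15 and 13 genes. OLFML2B, a gene of the olfactomedin family, stood at 19.1 FPKM in the small clone, against 1.26 in 2N clone 1 and at most 8.94 in the 5 others. MSLN, the surface protein mesothelin, had 8.25 FPKM in the small clone, against 0.984 in 2N clone 1 and at most 4.27 in the others, and the homeobox gene HOXC13 had 8.46, against 0.776 and at most 7.499. CDH2, the N-cadherin of mesenchymal cells, had 3.28 FPKM in the small clone, against 31.3 in 2N clone 1 and 9.41 to 34.0 in the others, and LITAF, a membrane protein of endosomes, had 2.58 against 30.6 and 12.8 to 40.6. FGF2, a growth factor gene on chromosome 4, had 1.08 FPKM in the small clone, against 9.48 in 2N clone 1 and 5.73 to 10.7 in the others. The median of 231 expressed genes on chromosome 4 in the small clone lay 0.21 log2 units below the mean of the parental population and 2N clone 2, and that of 2N clone 1 lay 0.01 below it. Large clone 1 had a like value on chromosome 4, at -0.20. Its medians also departed on other chromosomes, with -0.27 on chromosome 13 and 0.26 on chromosome 19, where the small clone had 0.04 and 0.08.

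At BCAT1, FN1 and LIPG it was 2N clone 1 that lay outside the range of all other CAL51 libraries. BCAT1, which starts the breakdown of branched amino acids, had 1.65 FPKM in the small 4N clone and 47.0 in 2N clone 1, with at most 15.8 in the others. FN1, the matrix protein fibronectin, had 4.76 in the small 4N clone and 0.126 in 2N clone 1, with 4.96 to 169 in the others. LIPG, an endothelial lipase, had 10.3 and 0.651 in the small 4N clone and 2N clone 1, against 5.07 to 34.3 in the others. BOLA2B had 0.991 FPKM in the small 4N clone and 9.40 in 2N clone 1, with 8.79 in the parental library and at most 1.01 in the 4 remaining ones, but it has a near-identical copy and its reads are uncertain.

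By position, the 15 higher genes lay on 10 chromosomes and the 23 lower genes on 14. The chromosome 11 median, over 425 genes, was 0.03 in the small 4N clone and -0.01 in 2N clone 1, and it was 0.11, 0.28 and -0.01 in the large clones. The chromosome X median was -0.17 in the small 4N clone and -0.25 in 2N clone 1, and it was -0.11, -0.13 and -0.17 in the large clones, -0.10 in 2N clone 2 and 0.10 in the parental library, so the small clone did not stand apart from large clone 3, and 0 of the 38 genes lie on X. Within 1 Mb of each other lay 3 pairs of the 38 genes. EHF ends 478 kb before CD44 starts and both were higher in the pair. Of the genes tested between them, APIP, an enzyme of methionine salvage, had 8.36 and 8.01 FPKM in the small 4N clone and 2N clone 1 and 4.71 on average in the others, with a gap of 0.08, and PDHX, a subunit of pyruvate dehydrogenase, overlapped between the groups. ELF5, a relative of EHF on its other side, was near 0 in all. PHACTR2, a regulator of actin and phosphatase, ends 109 kb before PLAGL1 and both were lower, PHACTR2 with 1.54 and 2.56 FPKM in the pair and 6.61 to 23.2 in the others. LTV1, which lies between them and serves ribosome assembly, had 24.2 and 20.5 in the pair and 19.5 on average in the others, with overlap. SLC38A4 and RAPGEF3, 902 kb apart on chromosome 12, went in opposite directions. Genes outside the 38 are named here for their place, after their values were seen.

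**Figure D3:**
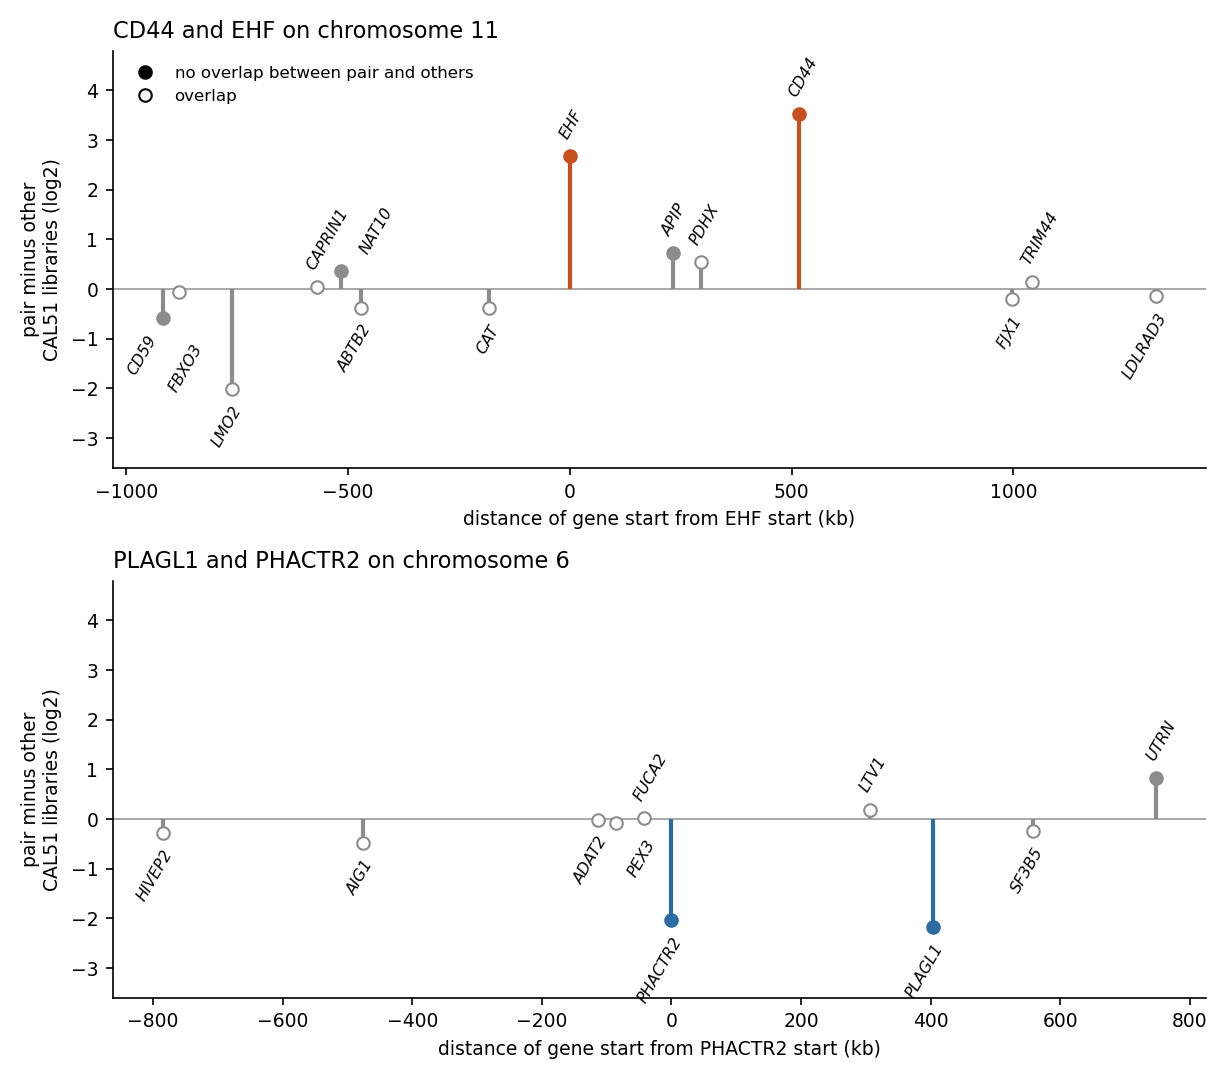
Difference between the CD44-high pair and the 5 other CAL51 libraries (mean log2(FPKM + 1) of the pair minus mean of the others) for genes around EHF and CD44 and around PHACTR2 and PLAGL1, by distance of the gene start in kb. Coloured genes follow CD44 by the rule, filled points have no overlap between the groups, and LTV1, between PHACTR2 and PLAGL1, overlaps.

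Gene lists were read by how many members lay wholly above or wholly below the 5 other libraries, where 11.9% and 10.9% of all genes did. The lists were written with earlier results of these data known, and their counts carry no test. Genes of ribosome biogenesis, the assembly of ribosomal subunits, lay above in 19 of 43 and below in 0, with a median difference of 0.31. DDX21, an RNA helicase of the nucleolus, had 118 and 104 FPKM in the small 4N clone and 2N clone 1 and 55.5 to 90.8 in the others, and DKC1, which modifies ribosomal RNA, had 54.1 and 49.0 against 32.6 to 37.6. Mitosis genes lay above in 9 of 39 and below in 1, with ANLN, the anillin of the cleavage furrow, at 58.8 and 56.9 FPKM in the pair and 19.3 to 40.9 in the others. DNA replication genes lay above in 7 of 46 and below in 2. None of these members reached the gap of 1. Large clone 1 weighs on these counts: without it ribosome biogenesis had 34 of 43 above and mitosis 11 of 39 above and 5 below, where 20.3% of all genes lay above and 16.6% below. DNA replication then had 13 of 46 above. Without 2N clone 1, mitosis and DNA replication each had 16 above, where 20.7% of all genes did, and without the small clone DNA replication had 15 above, where 18.5% did. Leaving out a library can only raise such counts, for a list as for all genes.

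Epithelial junction and identity genes lay above in 8 of 27 and below in 2, with EHF and CDH1 past the gap of 1. PKP2, a plakophilin of desmosomes, had 58.4 and 39.4 FPKM in the small 4N clone and 2N clone 1 and 9.66 to 22.3 in the others. GRHL1, a transcription factor of epithelia, had 2.48 and 3.52 in the pair and 0.270 to 1.13 in the others, and EPCAM, the epithelial adhesion molecule, had 184 and 150.2 against 53.4 to 128. Keratins did not follow: KRT19 had 93.7 FPKM in the small 4N clone and 27.6 in 2N clone 1, against 2.28 to 40.2 in the others, and KRT8 had 509 and 559, against 1964 in large clone 1 and 32.5 to 181 in the 4 remaining libraries. Mesenchymal genes lay above in 1 of 26 and below in 8. PDGFRB, a growth factor receptor of mesenchyme, had 0.573 FPKM in the small 4N clone and 3.08 in 2N clone 1, against 3.47 to 23.7 in the others, while SPARC, a matrix glycoprotein, overlapped at 17.1 and 10.7 against 14.7 to 345. VIM did not separate either, at 7.34 to 28.2 FPKM in the pair and 6.53 to 36.9 in the others. A list of 10 fibroblast markers, 4 of them past the filter, summed to 0.915 FPKM in the small 4N clone and 3.78 in 2N clone 1 and to 4.56 to 47.1 in the others, and its part in the mesenchymal counts was not tested. Without the small clone, epithelial genes had 13 of 27 above and 3 below and mesenchymal genes 2 of 26 above and 13 below, where 18.5% of all genes lay above and 17.9% below. Without 2N clone 1, epithelial genes had 9 above and 6 below and mesenchymal genes 2 above and 9 below, where 20.7% and 18.6% of all genes did.

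Among immune and inflammatory lists, interferon-stimulated and antigen presentation genes lay below in 11 of 23 and above in 0, with a median difference of -0.55. B2M, the invariant chain of the molecules that present peptides to T cells, had 10.2 FPKM in the small 4N clone and 7.25 in 2N clone 1, against 12.8 to 35.7 in the others. PSMB8, a subunit of the immunoproteasome, had 0.440 and 0.276 in the pair and 1.43 to 2.32 in the others. NF-kB targets and chemokines lay below in 7 of 15 and above in 0, with LIF past the gap of 1, and the cytokine gene IL32 had 1.25 and 0.445 FPKM in the pair and 2.85 to 13.1 in the others. In the list of surface proteins that restrain phagocytosis and complement, CD47 was above and CD59, an inhibitor of the complement pore, was below, at 5.42 and 5.20 FPKM in the pair and 7.19 to 10.8 in the others, with the other 7 of 9 overlapping. Without 2N clone 1, 4 of these 9 lay above, where 20.7% of all genes did.

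**Figure D4:**
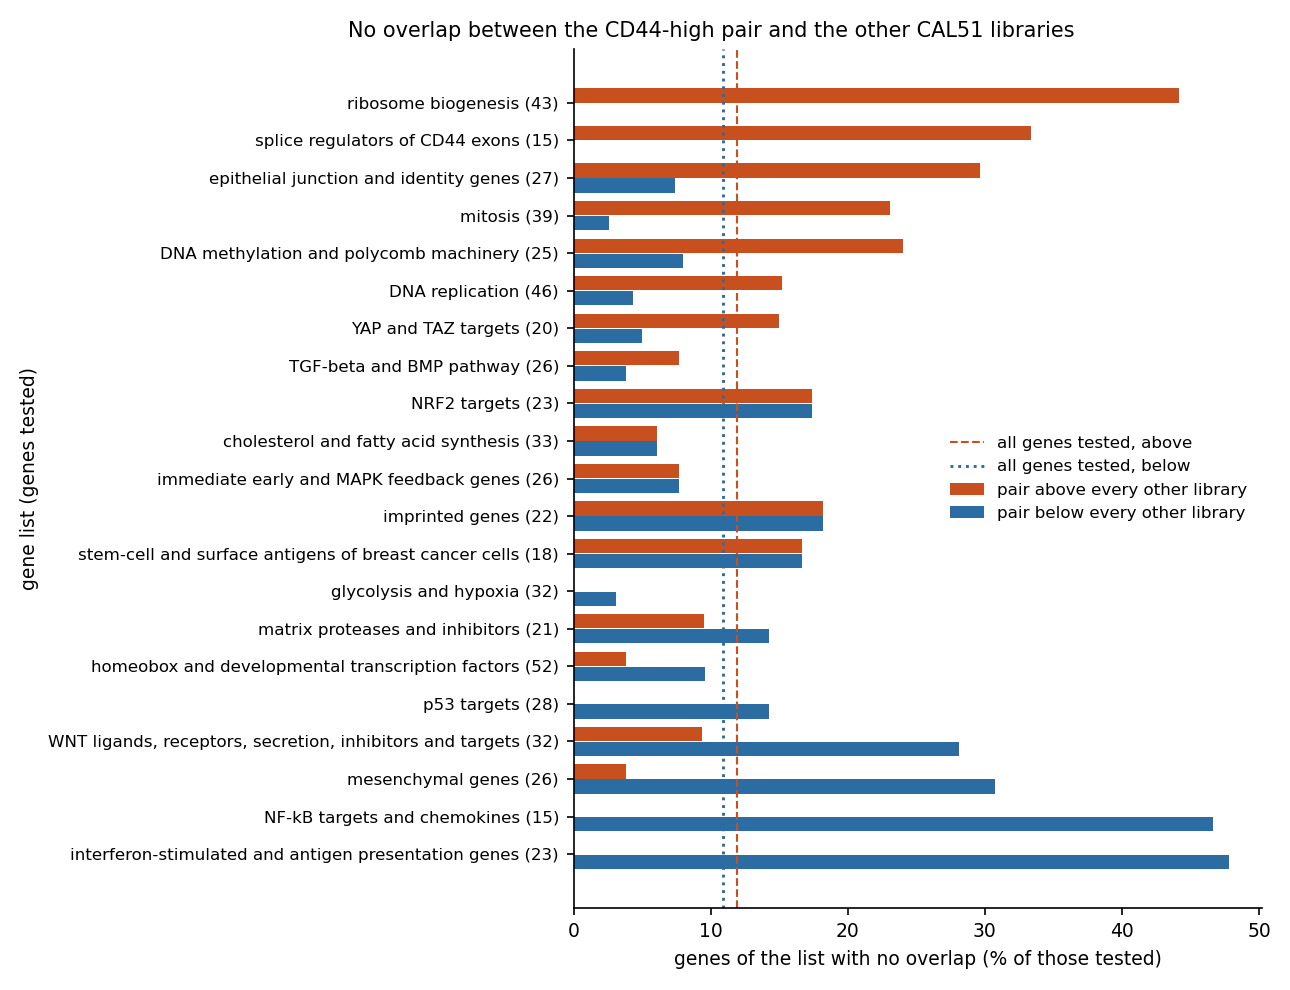
Share of tested members of each gene list (15 or more tested) that lay above (orange) or below (blue) all 5 other CAL51 libraries in both libraries of the CD44-high pair. The dashed and dotted lines mark the 11.9% and 10.9% of all 12615 genes, and ribosome biogenesis and interferon genes lie at opposite ends with 19 of 43 above and 11 of 23 below.

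Further lists held a few of the 38 genes or lay close to the markers. Of WNT genes, 3 of 32 lay above and 9 below. They included SOST and WLS, needed for the secretion of WNT proteins, which had 15.7 FPKM in the small 4N clone and 39.8 in 2N clone 1, against 60.8 to 394 in the others, so an inhibitor and a secretion factor were both low. Without large clone 1 the WNT count above was 7, and without 2N clone 1 it was 6, where 20.3% and 20.7% of all genes lay above. Of 28 p53 targets 0 lay above and 4 below, GDF15 among them, and without the small clone 12 lay below, where 17.9% of all genes did. Of 22 imprinted genes 4 lay above and 4 below, with PLAGL1 past the gap, and RB1 was above at 21.5 and 19.3 FPKM against 8.64 to 15.3. Without the small clone 7 of the 22 lay above, where 18.5% of all genes did. Of 8 tested genes for making, binding or cutting hyaluronan, the ligand of CD44, 2 lay above and 0 below, CEMIP2 at 13.4 and 12.5 FPKM in the pair and 4.12 to 11.5 in the others and UGDH at 19.2 and 19.5 against 9.42 to 18.7. Regulators of the splicing of CD44 exons lay above in 5 of 15, and in 9 without large clone 3, where 13.4% of all genes did, but values per gene do not show which exons were used. FOSL2, a subunit of the AP-1 transcription factor, just missed the gap of 1 at 0.90, with 40.3 and 27.1 FPKM in the pair and 2.15 to 14.04 in the others, and GPC3, a surface proteoglycan, missed it at 0.73, with 23.6 and 92.8 against 155 to 364.

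Among the CD44-low libraries, the 3 large 4N clones were compared with 2N clone 2 and the parental population. Every 4N library here is a large clone, so ploidy cannot be told apart from size class or blebbistatin treatment. With limma and Benjamini-Hochberg adjustment over 12615 genes, 0 genes passed an adjusted p of 0.05 in either direction (lowest adjusted p 0.93), 349 (2.77%) had an unadjusted p under 0.05, and limma voom on recovered reads also called 0. Simulated data of this design changed only genes with a mean log2(FPKM + 1) above 2 in CAL51. There the test recovered 67 of 100 genes changed by a log2 of 2 and 13 of 100 changed by 1. Most changes of the smaller size would thus be missed at this number of clones, and recovery at lower genes was not tested. Of the 38 genes 4 had an unadjusted p under 0.05. The large minus 2N log2 difference was -1.66 ± 0.42 at MMP28, -0.84 ± 0.19 at FGF8, 0.74 ± 0.18 at PLAGL1 and 0.81 ± 0.30 at GDF15 (SE), and limma's adjusted p was 0.99 for each of the 4. A limma fit of all 26 libraries, which borrows its estimate of the spread from the other lines, called MMP28 (adjusted p = 0.000672), FGF8 (adjusted p = 0.015) and CTSS (adjusted p = 0.0269) among the 38, where other alternatives gave adjusted p-values as high as 0.999986 for each. The CD44 difference was -0.85 ± 0.53 and that of CD47 -0.12 ± 0.21. All 15 genes higher in the pair had a negative difference here (median -0.59), and 19 of the 23 lower genes a positive one (median 0.34), where 6807 of 12615 genes were positive. These libraries are also those the pair was set against, so the directions are not independent of how the genes were chosen. Among all genes the 5 highest by limma's statistic were ZIC2, ZNF114, PCDH7, SLC6A8 and DUSP8 and the 5 lowest GUCY1B1, L1CAM, STK26, LEFTY1 and COL3A1, none of them past the threshold. L1CAM, an adhesion molecule of nerve cells, had 0.966, 1.12 and 1.81 FPKM in the large clones, against 17.2 in 2N clone 2 and 48.4 in the parental library, and the pair was split at it, with 12.6 FPKM in the small 4N clone and 1.42 in 2N clone 1. ZIC2, a zinc finger factor of the developing brain, had 31.6, 38.1 and 37.2 in the large clones, against 16.7 in 2N clone 2 and 17.2 in the parental library.

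Whether the same genes differed between large and small 4N clones was tested in the lines that the CD44 rule did not use. In HCT116, 11 genes were higher (0.0837%) and 0 lower (0%) in the 3 large than in the 3 small clones at limma's adjusted p of 0.05 over 13141 genes, and 2071 (15.8%) had an unadjusted p under 0.05. Of the 38 genes 21 were expressed enough to be tested, 0 of them passed and 9 had an unadjusted p under 0.05. The large minus small difference was positive at 5 of 8 genes higher in the pair and at 4 of 13 lower ones. Over all genes it was positive at 6473 of 13141. In DLD1, 9 genes were higher (0.0729%) and 23 lower (0.186%) in the 4 large than in the 3 small clones over 12349 genes, with 1439 (11.7%) at an unadjusted p under 0.05. Of the 38 genes 18 were tested, 0 passed and 6 had an unadjusted p under 0.05. The difference was positive at 4 of 8 higher and 6 of 10 lower genes, and at 5878 of all 12349 genes.

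CD47 averaged 4.44 ± 0.43 FPKM in large and 6.16 ± 0.896 in small HCT116 clones (SD, n = 3 each), a log2 difference of -0.39 ± 0.13 (SE, limma adjusted p = 0.239). In DLD1 it averaged 3.97 ± 0.564 in large (n = 4) and 8.36 ± 3.04 in small clones (n = 3), a difference of -0.86 ± 0.20 (limma adjusted p = 0.123). That call depended on the fit, since limma's adjusted p was 0.00509 without small clone 1 and 0.0147 in the fit of all 26 libraries. PLAGL1 averaged 5.61 ± 0.46 FPKM in large and 3.62 ± 0.813 in small HCT116 clones (0.53 ± 0.15, limma adjusted p = 0.208), and 6.005 ± 1.55 in large and 4.14 ± 0.502 in small DLD1 clones (0.43 ± 0.16, limma adjusted p = 0.323). At both genes, in both lines, every large clone stood on the same side of every small clone, but neither passed over all genes. The share of all genes separated in this way was not counted. The 2N clones and parental populations held 4.57 to 5.60 FPKM of PLAGL1 in HCT116 and 5.89 to 7.82 in DLD1. Their CD47 was 5.68 to 6.54 FPKM in HCT116 and 4.88 to 6.09 in DLD1. CD44 itself averaged 52.5 ± 24.2 FPKM in large and 61.0 ± 17.2 in small HCT116 clones and 1.87 ± 1.83 in large and 1.23 ± 0.94 in small DLD1 clones, with overlap in both lines. EHF stood at 23.8 ± 0.873 FPKM in large and 8.92 ± 13.1 in small HCT116 clones, a log2 difference of 2.33 ± 0.94 (limma adjusted p = 0.287) with 1 small clone at the level of the large ones, and at 9.50 ± 6.38 in large and 17.5 ± 12.5 in small DLD1 clones. SEMA6B pointed in opposite ways, at 29.2 ± 7.23 FPKM in large and 48.0 ± 4.5 in small HCT116 clones, and at 2.17 ± 1.87 in large and 0.282 ± 0.157 in small DLD1 clones.

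Part of the 38 genes were low in the colorectal lines, and the share of all genes that were so was not counted. Of the 15 genes higher in the CAL51 pair, 6 stayed under 1 FPKM in every HCT116 library and 7 in every DLD1 library. Of the 23 lower genes, 10 did so in HCT116 and 13 in DLD1. IGFBP3, NTS, FBN2, SOST, TCIM, SMOC2, TUSC3, SPSB4, RAPGEF3 and CTSS did so in both lines.

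**Figure D5:**
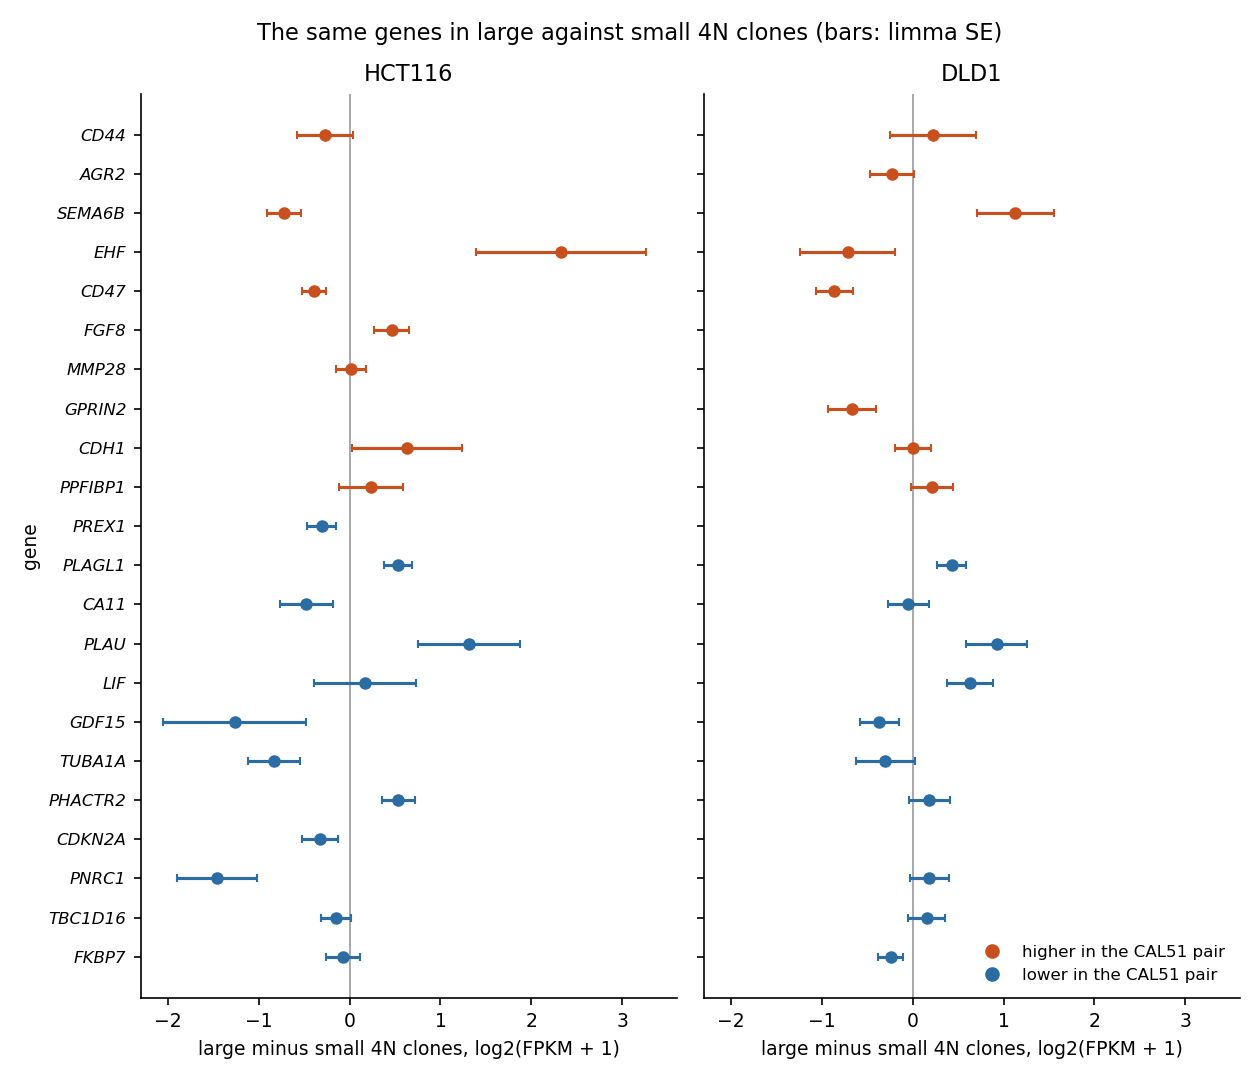
Log2(FPKM + 1) difference of large minus small 4N clones in HCT116 (3 against 3) and DLD1 (4 against 3), with its limma standard error, for those of 37 of the 38 genes that could be tested in each line. Orange genes were higher and blue genes lower in the CD44-high CAL51 pair, and 0 of the genes shown passed an adjusted p of 0.05.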

How the data were processed

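Poly-A RNA was sequenced, per the labels, from directional dUTP libraries. Per the submitters' processing notes the tools were fastp, HISAT2 2.0.5, featureCounts 1.5.0-p3 and DESeq2, on GRCh38. The authors deposited FPKM for 58735 genes in 26 libraries, with gene names, lengths and positions. Whole reads were recovered from the FPKM through gene length (100% of values within 0.01 of a whole number). The members, lists and tests were chosen with earlier results of these data known.

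CAL51 libraries with CD44 above 40 FPKM formed the pair. Genes needed 1 FPKM or more in at least 2 libraries of a line, and values were log2(FPKM + 1), on which folds of low genes are understated. The pair was compared with the others by gaps, without a test. Ploidy and size comparisons used limma 3.58.1 in R 4.3.3, each line alone, with intensity trend, two-sided, with Benjamini-Hochberg adjustment over all genes and a threshold of 0.05. The fit for CAL51 had 4 means (the small clone and 2N clone 1 on their own) and 3 residual degrees of freedom. The test was checked on simulated data with 12358 genes for CAL51. Each library is a separate clone or population, and the p-values rest on how much clones of the same class vary. Chromosome medians used genes with a mean of 5 FPKM or more, relative to the median of the library over all genes.

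Genes were named by a rule: the markers, the 20 widest gaps in each direction, list members that followed CD44 and up to 4 further members per list by size of difference, the 5 highest and 5 lowest in the ploidy comparison, and up to 8 per direction between the small clone and 2N clone 1, among genes where either lay outside the range of the 6 other CAL51 libraries. Other genes named for position, for line identity or as the remainder of the 23 were chosen after their values were seen. RefSeq windows were matched by symbol. The alternatives were a pseudocount of 0.1, no filter, a filter of 5 FPKM, median-ratio scaling, recovered reads (limma voom, or log2 CPM with a prior count of 2), gaps of 0.5, 2 and above 0, each library left out, other fits and a replicate block. The list counts without single libraries and under median-ratio scaling were added after seeing the data. Python 3.11.15 with pandas 2.3.3, numpy 2.4.6 and matplotlib 3.10.9 was used. XIST, genes of chromosome Y and the values of some other genes, 1 of the 38 among them, are not reported here.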

Additional observations from a re-analysis of the deposited data

Results flagged for a closer look

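Over the 38 genes that follow CD44, the 5 other CAL51 libraries and, where a gene was tested there, the 4 large DLD1 clones were searched for a single library far from the rest, by the ratio of its gap to the range on the log2 scale. Among 56 such groups 3 were found, close to the number that chance gives (about 1 in 20 groups).

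SLC38A4 was at 0.282 FPKM in large clone 2, against 2.41 to 3.63 in the 4 remaining CD44-low libraries. SOST was at 343 FPKM in large clone 1, against 19.8 to 36.0 in the same set. CDKN2A was at 14.6 FPKM in large clone 1, against 5.23 to 6.98. In each case the library lies farther from the pair than its neighbours do, so it does not set the gap. Between HCT116 and DLD1, 16 of the 38 genes could be compared for a different effect of large against small clones, and 0 passed limma's adjusted p of 0.05 for the difference.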

How the results depend on the processing

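The number of genes that follow CD44, 38, was 120 with a pseudocount of 0.1, 145 on log2 CPM of recovered reads, 208 with a gap of 0.5, 5 with a gap of 2 and 2878 with any gap above 0. It ran from 44 to 108 with each CAL51 library left out in turn, highest without 2N clone 1, and was 91 without large clone 1 and 85 without the small clone. Leaving out a library or lowering the pseudocount can only widen a gap, so no gene could be lost there and these counts say nothing of stability. After median-ratio scaling, which can lose a gene, the count was 37. With a filter of 5 FPKM, which can also lose genes, it was 32. The count between the small clone and 2N clone 1, 260, was 648 with a pseudocount of 0.1, 665 on recovered reads, 150 with a filter of 5 FPKM and 28 for differences of 2 or more. Of 450 gaps of single genes under alternatives, 39 moved by more than the SD of the 5 others.

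The CAL51 ploidy count of 0 was 34 with no filter and 105 in a fit of all 26 libraries, and ran from 0 to 1 with libraries left out. No paired analysis was possible for the libraries of that comparison because the parental population carries no number. A replicate block over 2N clones 1 and 2, which puts a CD44-high library in the 2N group, called 90.

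The HCT116 count of 11 was 7 with a filter of 5 FPKM, 297 in the fit of all libraries and 2 with the replicate block, and ran from 2 to 454 with clones left out, 454 without large clone 2. The DLD1 count of 32 was 14 with a pseudocount of 0.1, 3 with no filter, 11 with a filter of 5 FPKM, 3 with limma voom, 128 in the fit of all libraries and 9 with the replicate block, and ran from 2 to 79 with clones left out, 79 without small clone 1. Same-numbered large and small clones deviated together by correlations of 0.03, 0.17 and 0.17 in HCT116 and -0.01, 0.09 and -0.06 in DLD1, so the numbers were not taken to pair the clones, although in HCT116 every clone correlated best with its own number, a hint from the data and not the design. In the CAL51 ploidy comparison MMP28, FGF8 and CTSS passed in the fit of all libraries, and AGR2, SEMA6B, SLC38A4, DAB1, FGF8, MMP28 and PREX1 passed with the replicate block. That block counts 2N clone 1 among the 2N libraries, and the genes were chosen through its values. Their calls with the block thus follow from the choice and say nothing of ploidy. Of the 38 genes CD47 passed in DLD1 without small clone 1 (limma adjusted p = 0.00509) and in the fit of all libraries (limma adjusted p = 0.0147), with a range of 0.00509 to 0.377 over the alternatives, and PNRC1 passed in HCT116 without large clone 2 (limma adjusted p = 0.0251) and in the fit of all libraries (limma adjusted p = 0.0358), with a range of 0.0251 to 0.516. The cause of these movements was not tested. A pair of libraries gives no error for the group. Some values under 1 FPKM rest on few reads, as at PLAGL1 with 13 and 17 in the pair, while IGFBP3 had 110 and 120.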
